A study of Homo sapiens with 9 samples.

Results

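The genes described here are 9 direct targets of the transcription factor p53: *MDM2*, *CDKN1A*, *BAX*, *BBC3*, *FAS*, *GADD45A*, *SESN1*, *RRM2B* and *ZMAT3*. They were taken by symbol from the deposited expression tables, where all 9 were found among 63856 annotated genes, and all 9 had enough counts to be tested among 18452 genes. The study used TCam-2, an established human seminoma cell line, in 3 groups of 3 samples each. WT cells had no modification. ESX1 cells carried sgRNAs specific for *ESX1*, an X-linked homeobox gene, and NC cells carried sgRNAs that do not match the human genome. Per the study's methods, ESX1 cells were transfected by lipofection with gRNA vectors that also encode GFP and with a vector for dCas9-VPR. The latter is a catalytically dead Cas9 fused to transcriptional activators (CRISPRa). NC cells received the same gRNA vector with nonspecific gRNAs, and the methods do not state whether they also received dCas9-VPR. Cells of both modified groups were then kept in puromycin and doxycycline, which the methods do not state for WT cells. Only a part of these cells was GFP-positive, so the modified samples were mixed populations. In NC against WT the effects of transfection, of the vectors and of any difference in these drugs cannot be told apart. ESX1 against NC differed in the gRNAs, and whether it also differed in dCas9-VPR is not stated.

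p53 is kept low in unstressed cells because MDM2, itself a p53 target, marks it for degradation. When DNA is damaged or nucleotides or growth signals go wrong, p53 accumulates and binds DNA elements made of a pair of short repeats near its targets. Through them it raises genes that stop the cell cycle, repair DNA, limit oxidative stress or start apoptosis. Germ cell tumours such as seminoma usually keep a working p53 pathway, which is the textbook background to their sensitivity to DNA-damaging drugs.

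The form of the p53 element searched here consists of 2 abutting decamers, 20 bases in all, and reads the same on both strands. It was searched, with at most 3 mismatches and 0 bases between the decamers, in RefSeq promoter windows of the GRCh38.p14 assembly, each covering 250 bases before and 50 after an annotated start. Among the members, windows of 7 of the 9 genes (15 windows) were searched, and *GADD45A* and *RRM2B* were not searched for a match. A match was found in 3 of the 7, and these windows are printed 5′ to 3′ with the matched bases in capitals. All of them lie inside their genes, at starts other than the outermost. The *MDM2* window is on the plus strand at chr12:68808767-68809066 and the *FAS* window on the plus strand at chr10:88991181-88991480. The *SESN1* window is on the minus strand at chr6:109008939-109009238.
MDM2: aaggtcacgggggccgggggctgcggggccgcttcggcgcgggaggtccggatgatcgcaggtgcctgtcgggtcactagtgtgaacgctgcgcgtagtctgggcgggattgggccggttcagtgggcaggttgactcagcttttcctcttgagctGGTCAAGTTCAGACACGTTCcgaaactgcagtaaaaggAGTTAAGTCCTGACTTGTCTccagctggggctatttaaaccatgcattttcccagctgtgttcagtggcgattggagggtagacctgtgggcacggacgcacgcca
FAS: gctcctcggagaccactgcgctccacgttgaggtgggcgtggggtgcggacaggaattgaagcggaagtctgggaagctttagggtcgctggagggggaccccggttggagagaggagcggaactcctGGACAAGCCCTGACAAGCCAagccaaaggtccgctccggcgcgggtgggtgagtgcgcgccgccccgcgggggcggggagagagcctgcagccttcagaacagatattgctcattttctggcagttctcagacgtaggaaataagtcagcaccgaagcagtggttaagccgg
SESN1: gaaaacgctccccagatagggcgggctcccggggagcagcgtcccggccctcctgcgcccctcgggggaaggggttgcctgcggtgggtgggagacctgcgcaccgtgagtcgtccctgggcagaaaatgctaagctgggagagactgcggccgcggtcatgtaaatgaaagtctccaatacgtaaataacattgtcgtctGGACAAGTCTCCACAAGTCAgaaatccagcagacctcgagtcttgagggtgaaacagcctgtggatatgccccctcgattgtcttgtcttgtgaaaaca
The *MDM2* window held 2 matches, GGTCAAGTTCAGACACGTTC with 2 mismatches starting 94 bases before the start and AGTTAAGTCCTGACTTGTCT with 3 mismatches starting 56 bases before it. *FAS* had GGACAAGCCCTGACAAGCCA with 2 mismatches, 122 bases before the start of its window, and *SESN1* had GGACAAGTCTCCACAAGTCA with 3 mismatches, 49 bases before the start of its window. The other windows of *FAS* and *SESN1*, among them those at their outermost starts, held no match. Over all genes, with no chromosome left out, 5.2% of 35116 windows held such a match, and 6.39% of 27305 genes had at least 1. A match is a description of the letters and no measure of binding, and the windows of *CDKN1A*, *BAX*, *BBC3* and *ZMAT3* say only that these letters are not within them.

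Between 5212804 (ESX1 replicate 3) and 10644408 (WT replicate 3) fragments were counted per sample. *ESX1* itself had 27 to 35 counts in the 6 control samples and 562, 554 and 170 in the ESX1 samples, or 56.7, 55.5 and 31.2 normalized CPM (counts relative to the library total, scaled by the TMM method), so the labels held. Of 10 seminoma markers, *POU5F1* (411 to 1400 CPM), *NANOG* (160 to 795 CPM) and *SOX17* (193 to 293 CPM) were present in every sample. *TFAP2C*, *PDPN*, *DPPA4*, *LIN28A* and *PRDM1* were at 34.4 CPM or more in every sample. *KIT* was at 50.9 to 105 CPM in WT, 18.5 to 21.4 CPM in NC and 11.9 to 12.7 CPM in ESX1. *ALPPL2* was low, at 0.405 to 5.52 CPM. Most of the list fell against WT, as given below. Of 12 markers of testis somatic, fibroblast, endothelial and immune cells, 5 were tested, and their summed level was 196 to 347 CPM in WT, 144 to 186 CPM in NC and 123 to 250 CPM in ESX1, most of it *COL1A2*. Collagen gene *COL1A1* rose in both comparisons with WT (2.19 and 2.27 on the log2 scale in NC and ESX1, adjusted p = 0.000708 and 0.000236) and *COL1A2* fell in both (-0.90 in each, adjusted p = 0.0163 and 0.01). The Sertoli cell gene *SOX9* (0.64 to 5.75 CPM) rose in ESX1 against NC (1.83, adjusted p = 0.012), and the steroidogenic gene *STAR* (1.16 to 4.34 CPM) and *AMH* did not pass, but without ESX1 replicate 2 *AMH* rose in ESX1 against WT (1.05, adjusted p = 0.00928). The Leydig cell gene *INSL3* was at 0 throughout, and the leukocyte genes *PTPRC* and *CD68* reached at most 0.184 CPM. *LUM*, also untested, had 31 counts (3.37 CPM) in WT replicate 1 and 0 to 4 counts in the other samples. The untested *DCN*, *PECAM1* and *CYP17A1* had 0 counts in WT and 0 to 5 in the modified samples. Of 3 embryonal carcinoma markers *SOX2* was tested, and it rose in NC against WT (1.23, adjusted p = 0.0222). The untested *TNFRSF8* went the other way, with 6, 13 and 10 counts in WT, 0 in each NC sample, and 5, 0 and 0 in ESX1. *LEFTY2*, also untested, had 0 to 10 counts over all samples. The part of these markers in the p53 target values was not tested. ESX1 replicate 2 stood apart in genes that respond to interferon: the summed level of 15 of them was 111 to 134 CPM in WT, 849 to 882 CPM in NC, and 151, 848 and 156 CPM in ESX1 replicates 1, 2 and 3. Values that use the ESX1 group are therefore given with and without that replicate where a member's call or a list's count changes. In the tests, rose and fell mean a Benjamini-Hochberg adjusted p below 0.05 over all tested genes in edgeR's quasi-likelihood test. In bulk RNA, fewer cells of a type and less RNA per cell cannot be told apart.

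*CDKN1A* and *GADD45A*, the targets that act on the cell cycle, were higher in NC than in WT, and higher again in ESX1 cells. *CDKN1A* (ENSG00000124762.13, chr6:36676460-36687339, plus strand) encodes p21, the inhibitor of cyclin-dependent kinases through which p53 arrests cells in G1. Its level was 11.3, 7.7 and 11.8 CPM in WT, 29.8, 24.4 and 26.7 CPM in NC, and 52.2, 33.1 and 36.0 CPM in ESX1. The 3 groups did not overlap in any pair. By edgeR, *CDKN1A* rose in NC against WT by 1.38 on the log2 scale (SE 0.204, adjusted p = 0.000241), and in ESX1 against WT by 1.97 (SE 0.204, adjusted p = 2.19e-06), which is 3.92-fold. Against NC the ESX1 difference was 0.59 (95% interval 0.19 to 0.99, adjusted p = 0.0979). Without ESX1 replicate 2 it was 0.72 and passed (adjusted p = 0.0423).

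*GADD45A* (ENSG00000116717.11, chr1:67685061-67688338, plus strand) encodes a stress sensor that binds p21, PCNA and the CDK1 kinase complex. It was at 6.31, 3.49 and 4.89 CPM in WT, at 19.8, 21.3 and 19.5 CPM in NC, and at 47.1, 22.5 and 39.1 CPM in ESX1. NC samples lay close together, and ESX1 replicate 2, the sample with NC-like interferon genes, was just above them. Of the 9 genes it had the highest fold changes, 2.03 on the log2 scale in NC against WT (adjusted p = 8.90e-05) and 2.86 in ESX1 against WT (adjusted p = 6.20e-07), or 4.07-fold and 7.28-fold. It was also the member that rose in ESX1 against NC, by 0.84 (SE 0.229, edgeR adjusted p = 0.0463), with all 3 ESX1 samples above all 3 NC samples. That call rested on single libraries: the adjusted p was 0.154, 0.123 and 0.168 without NC replicates 1, 2 and 3, 0.193 without ESX1 replicate 1 and 0.157 without ESX1 replicate 3, while without ESX1 replicate 2 the difference was 1.10 (adjusted p = 0.00235).

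*MDM2* (ENSG00000135679.22, chr12:68808176-68850686, plus strand) encodes the ubiquitin ligase that restrains p53, and the window printed above, with 2 matches to the p53 element, is 1 of its 4 windows. An overlapping window with the next start holds the same 2 matches, and the other 2 windows hold none. Its level was 412, 408 and 371 CPM in WT, 544, 636 and 603 CPM in NC, and 681, 752 and 844 CPM in ESX1, with no overlap between any pair of groups. Relative to WT it rose by 0.58 on the log2 scale in NC (SE 0.106, edgeR adjusted p = 0.00126) and by 0.94 in ESX1 (SE 0.107, adjusted p = 6.09e-06), 1.5-fold and 1.91-fold. The ESX1 against NC difference of 0.35 (95% interval 0.13 to 0.58) had an adjusted p of 0.0732. It passed without ESX1 replicate 1 (0.43, adjusted p = 0.0395). Of its exon bases, 9.22% overlap other annotated genes, and the counting used no strand option, so reads there cannot be assigned to a strand.

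**Figure D1:**
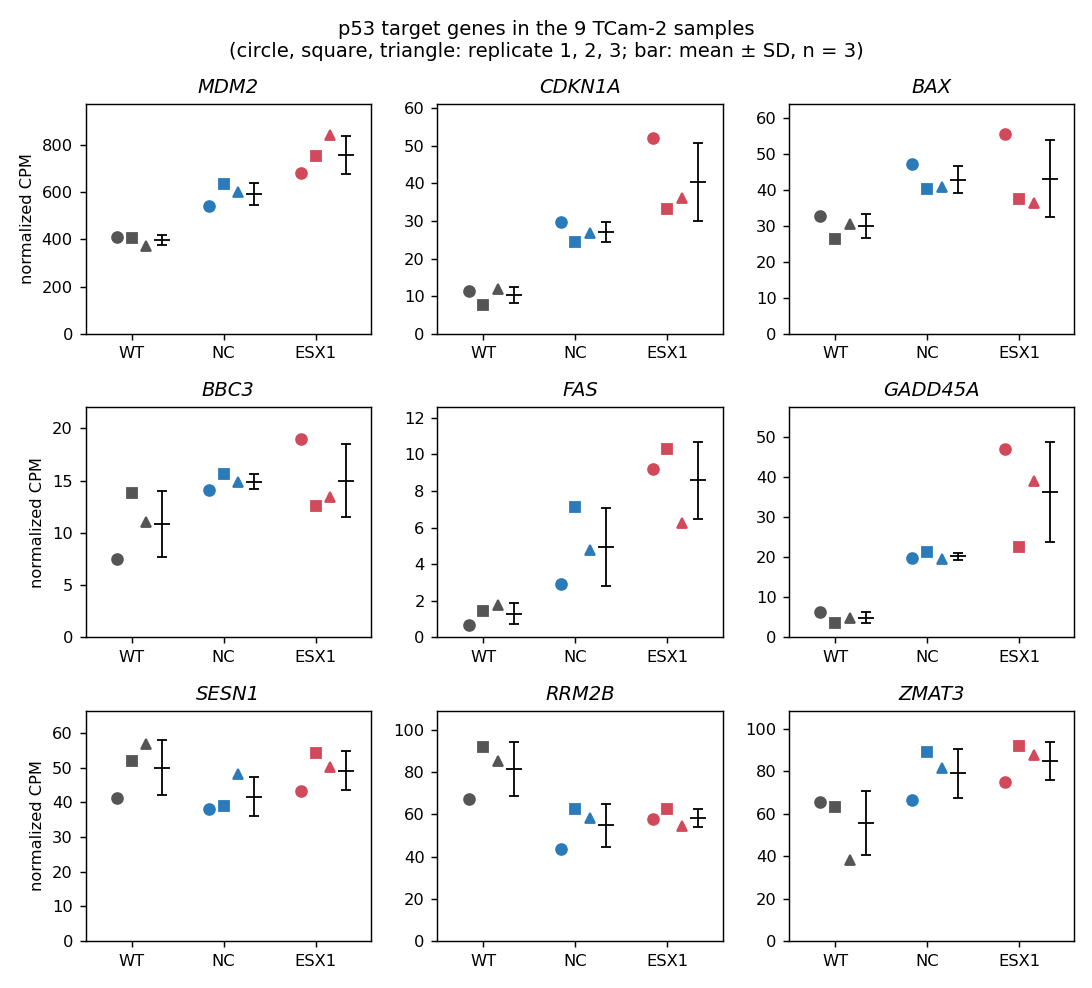
Normalized CPM of each of the 9 p53 target genes (vertical axes from 0) in the WT, NC and ESX1 groups. Circles, squares and triangles are replicates 1, 2 and 3 and the bars give the mean ± SD (n = 3). *MDM2* and *CDKN1A* step up from WT to NC to ESX1 with no overlap (*CDKN1A* means 10.3, 27.0 and 40.4), *GADD45A* and *FAS* start near 0, *RRM2B* is lower in both modified groups and *SESN1* overlaps in every pair.

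Among the targets that drive apoptosis, the death receptor gene moved more than the mitochondrial ones. *FAS* (ENSG00000026103.21, chr10:88990582-89015785, plus strand) encodes the receptor of FAS ligand, which starts the extrinsic pathway. It was the lowest of the 9 in every group, with 6, 10 and 17 counts in WT, 28, 67 and 47 in NC, and 91, 103 and 34 in ESX1. As normalized levels these were 0.653, 1.45 and 1.77 CPM, then 2.89, 7.15 and 4.76 CPM, and then 9.18, 10.3 and 6.25 CPM. Every NC and ESX1 sample was above every WT sample, while NC replicate 2 lay above ESX1 replicate 3. *FAS* rose by 1.93 on the log2 scale in NC against WT (SE 0.409, edgeR adjusted p = 0.00378) and by 2.74 in ESX1 against WT (SE 0.4, adjusted p = 7.44e-05), the latter 6.7-fold. Between ESX1 and NC the difference was 0.82 with a 95% interval of 0.1 to 1.53 (adjusted p = 0.228). Of its exon bases, 8.93% overlap *ACTA2* on the other strand.

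*BAX* (ENSG00000087088.19, chr19:48954815-48961798, plus strand), which perforates the outer mitochondrial membrane, was at 32.7, 26.3 and 30.6 CPM in WT, 47.1, 40.2 and 40.9 CPM in NC, and 55.4, 37.5 and 36.4 CPM in ESX1. Both modified groups lay above WT and overlapped each other. It rose by 0.52 on the log2 scale in NC against WT (edgeR adjusted p = 0.0401) and by 0.53 in ESX1 against WT (adjusted p = 0.0228), with a difference of 0.02 between ESX1 and NC (95% interval -0.33 to 0.36). Those rises were close to the threshold. In NC against WT the adjusted p was 0.157 and 0.0818 without WT replicates 2 and 3, and 0.152, 0.0655 and 0.0781 without NC replicates 1, 2 and 3. In ESX1 against WT it was 0.0975 without WT replicate 2 and 0.159 without ESX1 replicate 1. *BBC3* (ENSG00000105327.17, chr19:47220822-47232766, minus strand) encodes PUMA, which neutralizes the antiapoptotic BCL2 proteins. It was at 7.5, 13.8 and 11.0 CPM in WT, 14.1, 15.6 and 14.9 CPM in NC, and 19.0, 12.6 and 13.4 CPM in ESX1. WT and ESX1 overlapped, and no comparison of *BBC3* passed: the log2 differences were 0.48 for NC against WT (95% interval 0.00 to 0.95, adjusted p = 0.161), 0.50 for ESX1 against WT (adjusted p = 0.114) and 0.02 for ESX1 against NC (adjusted p = 0.98).

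The remaining members, with roles in redox control, nucleotide supply and RNA binding, did not share 1 direction. *RRM2B* (ENSG00000048392.11, chr8:102204502-102239118, minus strand) encodes the small subunit of ribonucleotide reductase that p53 induces to make nucleotides for repair. It was at 67.1, 92.1 and 85.2 CPM in WT, 43.4, 62.5 and 58.5 CPM in NC, and 57.7, 62.6 and 54.4 CPM in ESX1, so every modified sample was below every WT sample. By edgeR it fell by 0.57 on the log2 scale in NC (adjusted p = 0.0131) and by 0.48 in ESX1 (adjusted p = 0.0217), both against WT. The ESX1 against WT call was lost without WT replicate 2 (adjusted p = 0.114), WT replicate 3 (0.0642) or ESX1 replicate 3 (0.101) and with upper-quartile scaling (0.0604), and the NC against WT call without WT replicate 2 (0.0822) or NC replicate 1 (0.0778).

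*ZMAT3* (ENSG00000172667.10, chr3:179017223-179072279, minus strand), a zinc finger protein that binds RNA, was at 65.6, 63.3 and 38.4 CPM in WT, 66.6, 89.4 and 81.6 CPM in NC, and 74.8, 92.0 and 87.6 CPM in ESX1. The lowest NC sample was only just above the highest WT sample. It rose by 0.51 on the log2 scale in NC (edgeR adjusted p = 0.0493) and by 0.61 in ESX1 (adjusted p = 0.0135) against WT. Without WT replicate 3, its lowest sample, these were 0.30 (adjusted p = 0.198) and 0.40 (adjusted p = 0.059). The NC against WT call was also lost without WT replicate 2 (0.064), NC replicates 2 (0.164) or 3 (0.124), or ESX1 replicate 3 (0.0569). *SESN1* (ENSG00000080546.13, chr6:108986437-109094819, minus strand) encodes sestrin 1, which restrains mTORC1 and limits oxidants. Its window printed above holds a match to the p53 element, and its other windows hold none. *SESN1* was at 41.2, 52.0 and 56.8 CPM in WT, 38.1, 39.0 and 48.1 CPM in NC, and 43.2, 54.4 and 50.2 CPM in ESX1. All pairs of groups overlapped, with log2 differences of -0.26 in NC against WT (95% interval -0.57 to 0.06), -0.02 in ESX1 against WT (-0.34 to 0.29) and 0.24 in ESX1 against NC (-0.08 to 0.55).

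**Figure D2:**
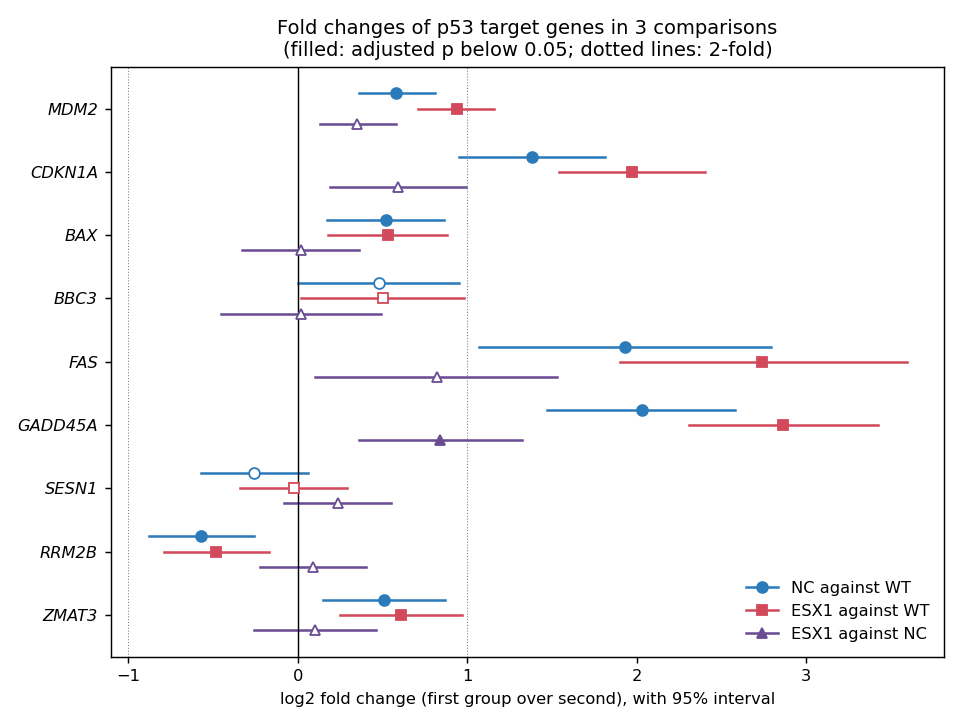
Log2 fold changes (horizontal axis) of the 9 p53 target genes with their 95% intervals in NC against WT (circles), ESX1 against WT (squares) and ESX1 against NC (triangles). Filled symbols had an adjusted p below 0.05 in edgeR and dotted lines mark 2-fold changes. *FAS*, *GADD45A* and *CDKN1A* lie beyond 2-fold in both comparisons with WT, *RRM2B* lies below 0 there, and in ESX1 against NC the filled symbol is that of *GADD45A* (0.84).

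Counted over the list, 6 of the 9 members rose in NC against WT (*GADD45A*, *FAS*, *CDKN1A*, *MDM2*, *BAX* and *ZMAT3*) and *RRM2B* fell. Of all tested genes 6.82% rose and 10.3% fell in that comparison. In ESX1 against WT, which uses the same WT samples, the 6 that rose and the 1 that fell had the same names, beside 12.9% and 15.8% of all genes. The median log2 fold change of the members was 0.52 in NC and 0.61 in ESX1, with 0.01 over all genes in each. At 2-fold or more, *GADD45A*, *FAS* and *CDKN1A* rose in each of these comparisons, where 3.12% and 6.78% of all genes did. Members with all 3 samples above all 3 WT samples numbered 7 in NC and 6 in ESX1, as 17.5% and 18.8% of all genes had, and *RRM2B* had all below, as did 20.1% and 21.5%. In ESX1 against NC 1 of 9 rose (*GADD45A*), where 1.88% of all genes rose, 1.08% by 2-fold or more, and 2.37% fell. *GADD45A* stayed under 2-fold, and 4 members were higher at an unadjusted p below 0.05 (*MDM2*, *CDKN1A*, *FAS* and *GADD45A*), as were 7.44% of all genes. All 3 ESX1 samples were above all 3 NC samples in *MDM2*, *CDKN1A* and *GADD45A*, as in 10.7% of all genes, and the median member difference was 0.24, with 0.00 over all genes.

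Leaving out ESX1 replicate 2 gave 2 members that rose in ESX1 against NC (*CDKN1A* and *GADD45A*, with 2.03% of all genes) and the same 6 and 1 members in ESX1 against WT. Leaving out any NC replicate, or ESX1 replicate 3, gave 0 members passing in ESX1 against NC, and leaving out WT replicate 2 gave 4 in place of 7 in NC against WT. With upper-quartile scaling the median of all genes shifted to 0.11 in ESX1 against WT and 0.10 in NC against WT. The share of called genes that were higher was then 57.5% and 55.1%, in place of 44.9% and 39.9%. Members that rose numbered 6 in each under that scaling too, and in ESX1 against WT *RRM2B* did not pass.

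Per kilobase of exon, *MDM2* was the most abundant member in every group, with 29.9 ± 1.69 CPM per kb in WT, 44.8 ± 3.48 in NC and 57.2 ± 6.16 in ESX1 (SD, n = 3). In WT it was followed by *RRM2B* (14.7 CPM per kb), *BAX* (11.5), *SESN1* (9.77), *ZMAT3* (5.78), *BBC3* (3.39), *CDKN1A* (3.36), *GADD45A* (2.37) and *FAS* (0.304). Only the steps from *MDM2* to *RRM2B*, from *SESN1* to *ZMAT3* and from *GADD45A* to *FAS* were free of overlap between neighbours in WT. The order changed most for *GADD45A*. In WT 42.1% of tested genes had a lower level per kb than *GADD45A*, in NC 77.9% and in ESX1 89.4%. In ESX1 it stood next to *MDM2* at 17.5 ± 6.07 CPM per kb, and its samples overlapped those of *BAX* (16.7 ± 4.12). *FAS* went from above 8.09% of tested genes in WT to above 24.2% in NC and 36.4% in ESX1.

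A further 49 direct p53 targets, listed by role, were examined in the same fits, and 48 of them were tested (*SPATA18* had 0 counts in every sample). In ESX1 against WT 23 rose and 7 fell, with a median log2 fold change of 0.50. In NC against WT, with the same WT samples, 13 rose and 5 fell, with a median of 0.18. In ESX1 against NC 3 rose and 1 fell, with a median of 0.14. Of all genes 12.9%, 6.82% and 1.88% rose and 15.8%, 10.3% and 2.37% fell in these comparisons, so the shares of the list that fell were near the background. The ESX1 against NC counts moved with single libraries, from 2 passing without NC replicate 2 to 9 without ESX1 replicate 2, and without that ESX1 replicate *GDF15*, *PIDD1*, *TNFRSF10B* and *TNFRSF10D* also rose and *TRIM22* also fell. In ESX1 against WT 24 rose and 7 fell without it.

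Among the 13 further cell death targets, 8 rose and 1 fell in ESX1 against WT, and 5 rose and 1 fell in NC against WT. Of all genes 12.9% rose and 15.8% fell in the former, and 6.82% rose and 10.3% fell in the latter. The 4 TRAIL receptor genes rose in both comparisons with WT. *TNFRSF10B*, the death receptor DR5, was at 68.7, 61.7 and 64.4 CPM in WT, 160, 136 and 142 CPM in NC, and 211, 169 and 202 CPM in ESX1. Each group lay wholly above the one before. It rose by 1.17 on the log2 scale in NC (edgeR adjusted p = 1.15e-05) and by 1.58 in ESX1 (adjusted p = 1.06e-07) against WT, and the ESX1 against NC difference was 0.41 (adjusted p = 0.0576). *TNFRSF10A*, the death receptor DR4, rose by 1.20 and 1.26 against WT in NC and ESX1, and the decoy receptor genes *TNFRSF10C* by 1.17 and 1.30 and *TNFRSF10D* by 0.59 and 1.05. *PMAIP1*, which encodes NOXA, differed by -0.27 and -0.30 with no call, *PERP*, a membrane protein of cell junctions and apoptosis, fell by 0.54 in NC (adjusted p = 0.0197), and *PHLDA3*, which restrains AKT, fell by 0.80 in ESX1 (adjusted p = 0.00176).

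Of the 9 further arrest and feedback targets, *PLK2* and *BTG2* rose and *E2F7* fell in both comparisons with WT, and *PPM1D* also rose in ESX1. Without ESX1 replicate 2 *PLK3* rose there too (0.65, adjusted p = 0.0357). Of all genes 6.82% rose and 10.3% fell in NC against WT, and 12.9% and 15.8% in ESX1 against WT. In ESX1 against NC, where *PLK2* rose and *E2F7* fell, these shares were 1.88% and 2.37%. The share of this list that fell against WT was near the background. *PLK2*, a polo-like kinase of stress and centriole duplication, was at 20.3, 12.6 and 10.4 CPM in WT, 32.6, 32.5 and 30.4 CPM in NC, and 82.3, 66.8 and 57.9 CPM in ESX1. The 3 groups were apart, and it rose in every comparison, by 1.14 in NC against WT (edgeR adjusted p = 0.00111), 2.26 in ESX1 against WT (adjusted p = 5.58e-07) and 1.12 in ESX1 against NC (adjusted p = 0.00216). *BTG2*, an antiproliferative gene, rose by 0.74 and 1.11 against WT in NC and ESX1, and *PPM1D*, the WIP1 phosphatase that switches p53 signalling off, by 0.49 in ESX1 (adjusted p = 0.00561). *E2F7*, a repressor of E2F target genes, was at 82.9, 84.8 and 76.7 CPM in WT, 60.5, 63.8 and 63.0 CPM in NC, and 42.9, 45.4 and 38.2 CPM in ESX1, and fell by 0.38, 0.94 and 0.56 in NC against WT, ESX1 against WT and ESX1 against NC (adjusted p = 0.0252, 1.14e-05 and 0.00754).

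Of the 5 DNA repair targets, 3 rose in ESX1 against WT, where 12.9% of all genes rose: *DDB2* by 0.67, *POLH* by 0.64 and *XPC* by 0.52. *DDB2* and *XPC* recognize ultraviolet lesions and *POLH* is a translesion polymerase, and *XPC* shares 30.39% of its exon bases with other genes. In NC against WT *XPC* (0.68) and *POLH* (0.50) rose, as did 6.82% of all genes. Of the 11 tested metabolism and redox targets, 6 rose and 2 fell in ESX1 against WT, beside 12.9% and 15.8% of all genes. *SESN2*, the sestrin related to *SESN1*, rose by 0.83 in NC and 1.12 in ESX1 against WT (adjusted p = 0.00508 and 0.000249). It was at 22.7, 21.8 and 29.9 CPM in WT, 52.3, 39.4 and 41.0 CPM in NC, and 63.6, 39.6 and 59.0 CPM in ESX1, where replicate 2 was again at the NC level. *PANK1*, a pantothenate kinase of coenzyme A synthesis, fell by 0.64 and 0.63, and *FUCA1*, a lysosomal fucosidase, fell by 0.73 in ESX1.

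The 10 targets with further roles held the highest fold changes of the list. *GDF15*, a secreted stress cytokine, was at 1.52, 0.726 and 1.15 CPM in WT, 7.33, 6.61 and 5.17 CPM in NC, and 17.1, 7.31 and 11.0 CPM in ESX1. NC and ESX1 lay above WT in every sample and overlapped at ESX1 replicate 2. It rose by 2.45 in NC (edgeR adjusted p = 0.000337) and by 3.34 in ESX1 (adjusted p = 4.30e-06) against WT. *KITLG*, the ligand of KIT, had 1, 5 and 0 counts in WT, 9, 9 and 10 in NC and 18, 30 and 9 in ESX1, and rose in ESX1 against WT (3.10, adjusted p = 0.00494), a value that rests on 6 WT counts. *STEAP3*, an endosomal iron reductase, was at 3.41 to 6.2 CPM in the 6 control samples and 22.5, 15.8 and 13.8 CPM in ESX1. It rose by 2.07 in ESX1 against NC (adjusted p = 0.000138) and by 1.75 in ESX1 against WT (adjusted p = 8.15e-05), and its NC against WT difference was -0.32 (95% interval -0.91 to 0.26). *NINJ1*, which ruptures the membrane of dying cells, was at 2.72, 2.32 and 3.85 CPM in WT, 2.06, 1.28 and 2.13 CPM in NC, and 5.55, 4.61 and 5.88 CPM in ESX1, on 12 to 55 counts. It rose by 1.53 in ESX1 against NC (adjusted p = 0.0122). NC lay below WT in every sample (-0.71, adjusted p = 0.175), and ESX1 against WT did not pass (0.83, adjusted p = 0.0632). The antiviral gene *TRIM22*, which interferon also induces, rose in NC against WT (1.33, adjusted p = 0.0162) and was at 4.54, 17.0 and 8.08 CPM in ESX1, with replicate 2 the high sample. *TNFAIP8*, *CYFIP2* and *TRAF4* fell in ESX1 against WT by 0.92, 0.78 and 0.61. Of these 10 targets, 3 rose and 3 fell in ESX1 against WT, beside 12.9% and 15.8% of all genes. In NC against WT 2 rose and 2 fell, beside 6.82% and 10.3%. In ESX1 against NC 2 rose and 0 fell, beside 1.88% and 2.37%.

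**Figure D3:**
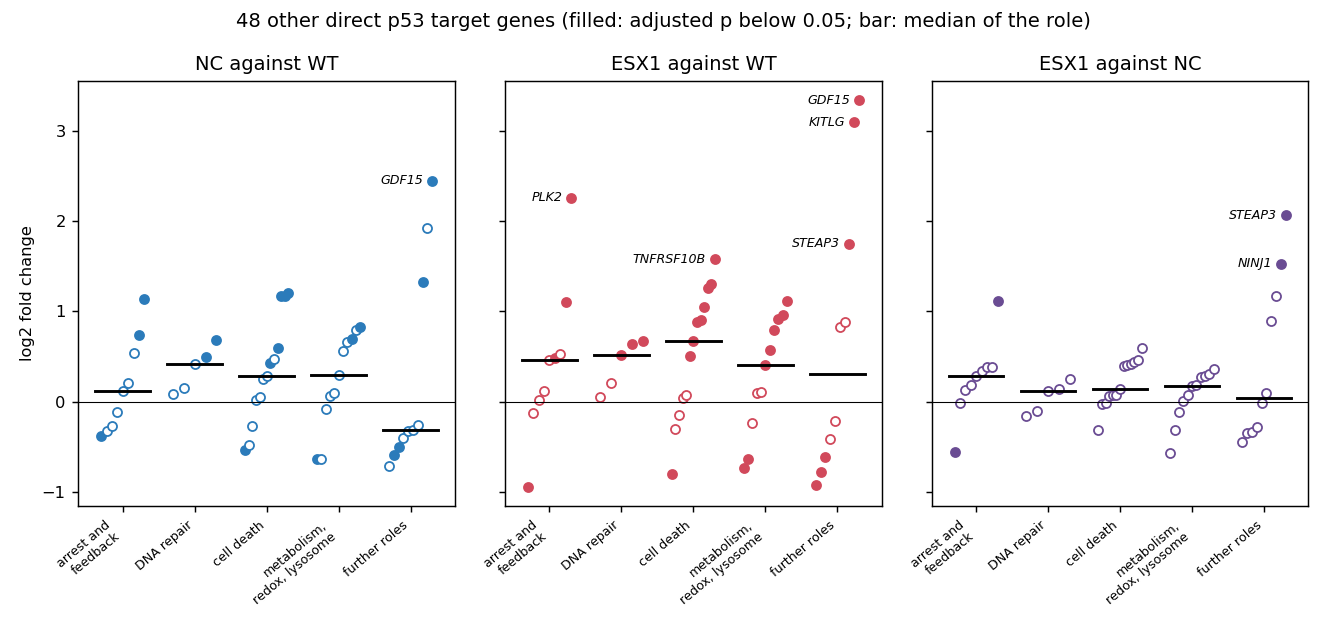
Log2 fold changes (vertical axis) of the 48 tested further p53 targets, grouped by role, in NC against WT, ESX1 against WT and ESX1 against NC. Each point is a gene, filled where its edgeR adjusted p was below 0.05, and bars are the medians of each role. Filled points lie both above and below 0 against WT, with *GDF15* at 2.45 and 3.34, and 4 filled points remain in ESX1 against NC, led by *STEAP3* (2.07).

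Of 15 relatives and upstream regulators of p53, 4 rose and 3 fell in ESX1 against WT, and 2 rose and 1 fell in NC against WT. Of all genes 12.9% and 15.8%, and 6.82% and 10.3%, did so. Without ESX1 replicate 2 *EP300* also rose in ESX1 against WT, making 5. In ESX1 against NC none passed in edgeR or DESeq2, and *TP63* and *HIPK2*, 1 in each direction, had an unadjusted p below 0.05, as had 7.44% of all genes higher and 8.56% lower. *CDKN2A*, whose products include ARF, which blocks MDM2, was at 0.729 to 2.47 CPM in WT, 1.92 to 4.8 CPM in NC and 4.96 to 6.01 CPM in ESX1, and rose in ESX1 against WT by 1.76 (adjusted p = 0.00413). It had 7 to 17 counts in the WT samples, and counts per gene do not separate its products. *TP63*, a p53 relative that guards germ cells in the ovary, was at 10.4, 5.52 and 2.08 CPM in WT and 17.9, 18.4 and 27.6 CPM in ESX1, a rise of 1.81 (adjusted p = 0.00128). *CHEK2*, a checkpoint kinase that phosphorylates p53, fell by 0.84 in NC and 0.74 in ESX1 against WT. *MDM4*, the partner of MDM2, was at 168 to 245 CPM over all samples with no call (0.30 in ESX1 against WT, adjusted p = 0.0573), and *ATM*, the kinase upstream of *CHEK2*, had differences of -0.26 in NC and -0.25 in ESX1 (adjusted p = 0.128 and 0.109).

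Genes that p21 represses through the DREAM complex, which shuts cell cycle genes off, had medians below 0 in all comparisons. Of 16 such genes, 7 fell in NC against WT, 15 fell in ESX1 against WT and 3 fell in ESX1 against NC (*MYBL2*, *PLK1* and *MKI67*), where 10.3%, 15.8% and 2.37% of all genes fell. Their medians were -0.38, -0.72 and -0.29. *CCNA2*, the cyclin of S phase, fell by 0.81 in NC against WT, and *CDK1* by 0.74 in NC and 0.84 in ESX1. *MYBL2*, a mitotic transcription factor, fell by 0.72 in ESX1 against NC (edgeR adjusted p = 0.0169). Without ESX1 replicate 2, 4 fell in ESX1 against NC and 14 in ESX1 against WT.

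Other gene programmes moved with the same groups, and their part in the p53 target values was not tested. Of 10 ATF4 target genes of the integrated stress response, which also induces *GDF15* and *SESN2*, 5 rose in NC against WT, 8 in ESX1 against WT and 1 in ESX1 against NC, with medians of 0.70, 1.18 and 0.32, where 6.82%, 12.9% and 1.88% of all genes rose. Without ESX1 replicate 2, 2 rose in ESX1 against NC (*ATF3* and *VLDLR*, median 0.45). *DDIT3*, the stress factor CHOP, rose by 1.59 and 2.02 against WT. Of 10 seminoma markers, 8 fell in NC against WT, 9 in ESX1 against WT and 7 in ESX1 against NC (medians -0.69, -1.46 and -0.70). The shares of all genes that fell were 10.3%, 15.8% and 2.37%. Of 14 tested interferon-stimulated genes, 14 rose in NC against WT and 13 in ESX1 against WT, and 1 fell in ESX1 against NC (*IRF7*). Without ESX1 replicate 2, 7 rose in ESX1 against WT and 13 fell in ESX1 against NC, beside 13.3% and 2.92% of all genes.

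**Figure D4:**
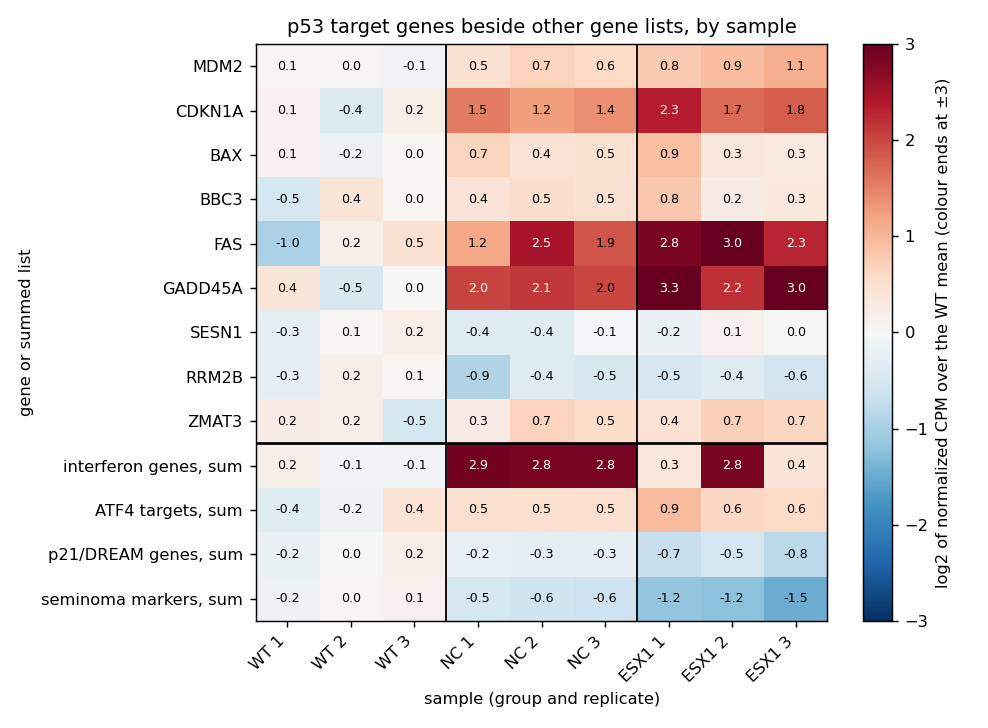
Each cell gives the log2 of the normalized CPM in 1 sample (columns, by group and replicate) over the mean of the 3 WT samples, for the 9 p53 target genes (upper rows) and for the summed levels of 4 other gene lists (lower rows). Colours end at 3 in either direction. The interferon sum is 2.8 to 2.9 in NC and in ESX1 replicate 2 and 0.3 and 0.4 in ESX1 replicates 1 and 3. *CDKN1A* is 1.2 to 2.3 in the 6 modified samples.

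Over the 9 samples, the genes whose log2 CPM followed that of *MDM2* most closely were *TES* (Pearson r = 0.993), *CEP350* (0.990), *TXNL4B* (0.988), *HSPD1P11* (0.985) and *OTULIN* (0.984). Those most like *CDKN1A* were *GLT8D2* (0.993), *SYNE1* (0.989), *GDF15* (0.989), *UAP1L1* (0.989) and *B4GALNT3* (0.987). These values are descriptions over 3 groups of 3 samples, picked as the highest of 18452 genes, and they carry the group differences and library scaling that all genes share.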

How the data were processed

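Total RNA of 9 TCam-2 samples (3 biological replicates per group, per the study's methods) was ribosome-depleted and sequenced as paired ends. Per the file headers and the labels, the authors aligned reads with HISAT2 2.0.5 to GRCh38 and deposited raw counts per gene from featureCounts (the file header names version 1.5.2 and GENCODE 26, the submitters' processing notes version 1.6.5), run without a strand option. The authors also deposited log2 expression values made with DESeq2, whose transformation is not given in the sources used here and which served as an alternative. The count and log2 tables were joined row by row. Counts (5212804 to 10644408 per sample) were filtered by expression, scaled by TMM and fitted with edgeR 4.0.16 (R 4.3.3) quasi-likelihood models on all 9 samples with group as the only term. p-values were adjusted over 18452 genes and measure the spread between these replicates. The test was checked on simulated data. DESeq2 1.42.0, limma 3.58.1, other scalings and filters, a replicate block and omission of each sample were alternatives. Promoter windows came from RefSeq (GRCh38.p14), and gene positions from the count table.

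Genes and lists were chosen with earlier results of these data known. Named genes were every member, per comparison up to 8 further targets with the largest rises and up to 8 with the largest falls among those passing, selected regulators, up to 4 examples of each other list, and the 5 genes most like *MDM2* and *CDKN1A*. Some of these were left out for length, and *PMAIP1*, *PPM1D*, *TNFRSF10D*, *DDB2*, *POLH*, *XPC*, *TP63*, *HIPK2*, *PLK3*, *EP300*, *ATF3*, *VLDLR* and the marker genes were named outside the rule, after their values were seen. One listed gene is not reported here and was left out of its list's counts. List counts without ESX1 replicate 2 were chosen after seeing the data.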

Additional observations from a re-analysis of the deposited data

How the results depend on the processing

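Of the values recomputed under the alternatives, 408 kept their direction and call, 25 lost a call, 6 gained one and 17 changed sign. Members passing in ESX1 against NC (1 in the report) were 2 with DESeq2, 2 with no filter beyond 1 count and 0 with limma on the deposited log2 values (*GADD45A* adjusted p = 0.0581), and 0 to 2 when a sample was left out. Further targets passing there (4) were 2 to 9 when a sample was left out, and all genes (784) 346 to 972, with 429, 381 and 346 without NC replicates 1, 2 and 3 and 454 without ESX1 replicate 3. In NC against WT members passing (7) were 4 to 7 and all genes (3158) 1796 to 3601, with 1796 without WT replicate 2 and 1929, 2025 and 1905 without NC replicates 1, 2 and 3. Of differences that did not pass, *BAX* in ESX1 against NC was -0.00 with limma and -0.21 to 0.13 with a sample left out. In the same comparison, with a sample left out, *BBC3* was -0.19 to 0.14, *RRM2B* -0.05 to 0.20 and *ZMAT3* -0.01 to 0.20. *SESN1* in ESX1 against WT was 0.09 with upper-quartile factors, 0.03 with at least 10 counts in every sample, 0.01 with only the 6 samples compared, 0.00 with limma, and -0.14 to 0.08 with a sample left out; the cause was not tested. Of 14 interferon-stimulated genes DESeq2 gave no adjusted p for 6, and of the other 8 it called 6 in ESX1 against WT and 7 in NC against WT, where edgeR called 13 and 14 of the 14.

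The labels do not say that a replicate number marks a shared culture or day. The replicate numbers, also those of the block, follow the sample titles, while the submitters' library names number the ESX1 samples otherwise. The deviations of same-numbered ESX1 and NC samples from their group means correlated with r = 0.193, 0.091 and 0.016, so the numbers were not taken as pairs. With the replicate block 3 members passed in ESX1 against NC, *MDM2* (adjusted p = 0.0455) and *CDKN1A* (0.0348) beside *GADD45A*, and 1052 genes in all. The block changed no other member's call. Depth limits *FAS*, *KITLG* and other genes of few counts, and ESX1 replicate 3 had the fewest counts.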
